A study of Mus musculus with 4 samples.

Results

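Pericentral hepatocytes, the liver cells nearest the central vein, were compared between hepatocyte-specific Nampt knockout (HNKO) and wild-type (WT) mice. They were taken as the single nuclei that the deposited table assigns to the clusters Central 1, Central HNKO 1 or Central HNKO 2, which gave 390 of 5193 nuclei. The other 10 hepatocyte clusters of the same livers held 4020 nuclei. Nuclei came from 3 HNKO and 3 WT mice, each stained before pooling with a separate hashtag antibody, whose oligonucleotide gives the mouse of origin. WT mice, labelled C57BL6/BomTac Nampt cKO, carried the floxed Nampt gene without Cre, and HNKO mice, labelled C57BL6/BomTac Alb-Cre Nampt cKO, carried it together with Cre driven by the hepatocyte-active albumin promoter. The mice were female littermates aged 8 to 12 weeks at the start of 6 weeks on a purified diet (PD). They came from the cohort used for nicotinamide riboside intervention, in which a bile duct catheter was inserted under anesthesia before sacrifice. Part of that cohort drank water with nicotinamide riboside, a precursor of NAD+ that bypasses NAMPT, in the later weeks of the diet. Which water these 6 mice drank is not given in the sources used here, so that the genotypes are compared without knowledge of that treatment. Cells in which the albumin promoter is silent keep an intact Nampt gene.

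Hepatocytes differ along the axis from portal to central vein. Blood reaches the portal side first, and Wnt ligands from central vein endothelium keep β-catenin active in the innermost hepatocytes, where the T-cell factor and lymphoid enhancer factor (TCF/LEF) proteins bring it to its target genes. Pericentral hepatocytes make glutamine from residual ammonia through glutamine synthetase (Glul) and hold much of the cytochrome P450 capacity for xenobiotics, whereas periportal hepatocytes carry urea synthesis and gluconeogenesis. NAMPT recycles nicotinamide into NAD+, the cofactor of the oxidoreductases and the substrate of sirtuins and PARPs.

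The RefSeq start regions of the defining pericentral genes are shown because these genes identify the cells and because β-catenin signalling acts on them. Each stretch holds the 250 bases before the RefSeq gene start in GRCm38.p6, printed 5′ to 3′ on the gene's strand, with matches to the TCF/LEF core CTTTGAN on either strand in capitals. The RefSeq start is not the first base of the gene in the GENCODE annotation that gives the gene positions elsewhere, except for Slc22a3. It lies 15 bases before that base for Glul, 80 bases inside the gene for Cyp2e1 and 47779 bases inside it for Slc1a2, whose window is therefore a stretch within the GENCODE gene. The windows lie at chr1:153899679-153899928 (plus strand) for Glul, chr2:102706188-102706437 (plus strand) for Slc1a2, chr17:12507705-12507954 (minus strand) for Slc22a3 and chr7:140763569-140763818 (plus strand) for Cyp2e1.
Glul: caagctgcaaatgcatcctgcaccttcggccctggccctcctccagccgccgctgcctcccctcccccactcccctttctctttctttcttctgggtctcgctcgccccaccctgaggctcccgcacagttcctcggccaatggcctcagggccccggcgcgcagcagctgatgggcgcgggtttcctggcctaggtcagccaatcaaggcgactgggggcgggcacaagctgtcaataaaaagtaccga
Slc1a2: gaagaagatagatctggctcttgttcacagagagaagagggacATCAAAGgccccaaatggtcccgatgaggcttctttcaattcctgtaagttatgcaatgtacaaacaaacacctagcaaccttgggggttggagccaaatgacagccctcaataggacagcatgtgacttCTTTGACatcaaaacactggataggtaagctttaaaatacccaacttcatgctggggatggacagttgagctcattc
Slc22a3: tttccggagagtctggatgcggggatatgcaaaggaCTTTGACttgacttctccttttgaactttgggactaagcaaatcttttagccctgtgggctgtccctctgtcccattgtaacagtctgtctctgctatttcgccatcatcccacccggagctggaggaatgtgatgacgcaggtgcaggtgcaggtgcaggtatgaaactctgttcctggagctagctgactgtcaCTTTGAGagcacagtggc
Cyp2e1: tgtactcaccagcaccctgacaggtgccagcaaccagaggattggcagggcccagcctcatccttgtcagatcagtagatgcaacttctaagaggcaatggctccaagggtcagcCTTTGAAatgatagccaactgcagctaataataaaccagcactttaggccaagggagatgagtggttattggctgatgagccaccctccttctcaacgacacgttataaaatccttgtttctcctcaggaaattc

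Of the 20 pericentral marker genes, 13 had a promoter in the RefSeq table, and 5 of these (Slc1a2, Slc22a3, Cyp2e1, Cyp1a2 and Cyp2c29) held at least 1 TCF/LEF match, against 13.8% of all 32851 promoters searched over the same length. The Cyp2c29 window, like that of Slc1a2, is a stretch within the GENCODE gene, with the RefSeq start 17680 bases inside it. The Slc1a2 window had a match in each orientation, and the Slc22a3 window had 2 matches, both as printed on the gene's strand. No TCF/LEF match lay in the Glul window, which held the nuclear receptor hexamer AGGTCA (found in 14.02% of all promoters). The Cyp2e1 window also held the TATA box TATAAA (12.4% of all promoters). The HNF1 palindrome (0.00913%) and the HNF4 site CAAAGTCCA (0.384%) were searched on both strands as well and were in none of these 4 windows. These matches describe the letters only.

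The cluster names were checked against their markers first. Among the 10 genes with the largest fold over all other nuclei, Central 1 had 3 pericentral markers, namely the glutamate transporter Slc1a2 (19.5-fold), Glul (15.9-fold) and the R-spondin receptor Lgr5 (8.48-fold). Central HNKO 1 had 4, led by the organic cation transporter Slc22a3 (75.1-fold), and Central HNKO 2 had 5, led by the transcription factor Tbx3 (19.5-fold). None of the 3 clusters had a periportal marker or a marker of another cell type among these genes. These folds describe genes that the clustering itself used.

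Within every mouse, 16 of the 20 pericentral markers were at a higher level in pericentral than in other hepatocyte nuclei, and 14 of the 15 periportal markers were at a lower level in them. The nuclei were divided by clusters that such markers define, so that this outcome is in part fixed by that choice. Of the periportal markers, Sdsl, Aldh1b1, Ctsc and Cyp2f2 had only 0, 3, 14 and 15 UMIs in all pericentral nuclei. Pericentral Ass1 in HNKO mouse 1 was at 0.867 times its level in the other hepatocyte nuclei. Levels are given throughout as counts per 1000000 (CPM) of the unique molecular identifiers (UMIs) summed over the nuclei of a mouse, scaled by the trimmed mean of M-values (TMM). The exceptions among pericentral markers were Rhbg, Tbx3, Rgn and Avpr1a, which were higher in some mice and lower in others. Pck1, an enzyme of gluconeogenesis, was the exception among periportal markers. When each nucleus was thinned to 1000 UMIs, 57.4% of pericentral nuclei had a Glul UMI, against 4.78% of other hepatocyte nuclei and 8.16% of endothelial nuclei. Slc1a2 was seen in 92.6% of pericentral, 3.46% of other hepatocyte and 5.31% of endothelial nuclei. The low shares of Glul and Slc1a2 in other hepatocyte nuclei lay below those in endothelial nuclei, and the part of free RNA in them was not tested. Slc22a3 was seen in 21.0% of pericentral, 0.498% of other hepatocyte and 0 of 245 endothelial nuclei (upper limit 1.22%, from 3 counts of the total). Before thinning, Glul was seen in 81.0% of pericentral, 17.4% of other hepatocyte and 24.9% of endothelial nuclei, at median depths of 3894, 4582 and 3017 UMIs per nucleus.

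Pericentral nuclei made up a larger share of the hepatocyte nuclei in each of the 3 HNKO mice than in any WT mouse. They were 6.94%, 6.87% and 6.54% of hepatocyte nuclei in WT mice 1, 2 and 3 (39 of 562, 49 of 713 and 43 of 657 nuclei), and 12.3%, 9.89% and 9.21% in HNKO mice 1, 2 and 3 (100 of 812, 81 of 819 and 78 of 847 nuclei). The means were 6.79% ± 0.211 (SD, n = 3) in WT and 10.5% ± 1.63 (SD, n = 3) in HNKO, a difference of 3.69 percentage points with a two-sided exact permutation p of 0.1, the smallest that 3 against 3 mice allow. The exact (Clopper-Pearson) 95% intervals ran from 4.98% to 9.36% in WT mouse 1 and from 10.1% to 14.8% in HNKO mouse 1, and those of HNKO mice 2 and 3 overlapped the WT intervals. These intervals cover counting error only.

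The 3 clusters were not shared evenly by the mice. All pericentral nuclei of the 3 WT mice were in Central 1. HNKO mouse 1 had 7 nuclei in Central 1 and 93 in Central HNKO 1, HNKO mouse 2 had 80 in Central 1 and 1 in Central HNKO 1, and all 78 pericentral nuclei of HNKO mouse 3 were in Central HNKO 2. Counting Central 1 alone turned the difference in share to -3.24 percentage points (exact permutation p = 0.4), with 0.862%, 9.77% and 0% of hepatocyte nuclei in the HNKO mice. A selection that ignored cluster names, chosen after seeing the data, took every hepatocyte nucleus with at least 2 UMIs of Glul, Slc1a2 and Slc22a3 together after thinning to 1000 UMIs. It took 403 nuclei, among them 340 of the 390 labelled ones, and gave shares of 7.15% to 8.19% in WT and 9.56% to 10.9% in HNKO mice, which did not overlap (difference 2.88 percentage points, exact permutation p = 0.1). Since it used markers of the same clusters and took mostly the same nuclei, it is not an independent check of the share.

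**Figure D1:**
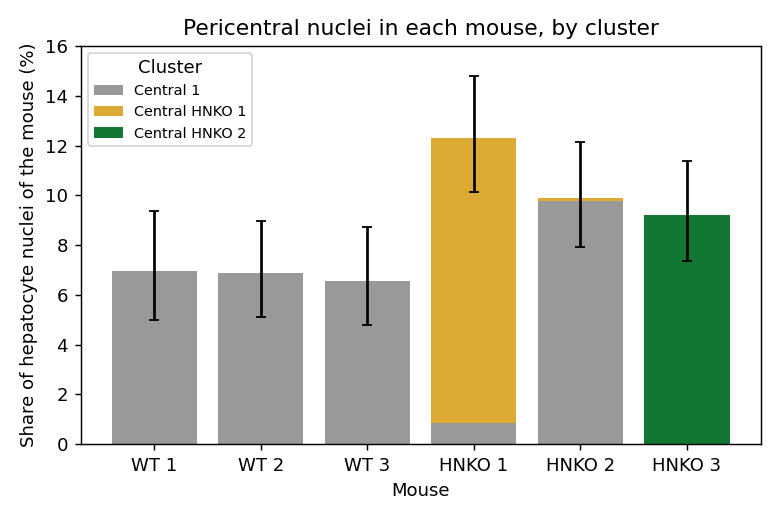
Share of each mouse's hepatocyte nuclei (vertical axis, percent) that were pericentral, for the 3 WT and 3 HNKO mice, with bars stacked by cluster and exact 95% binomial intervals of the whole bar. The 3 WT bars are Central 1 throughout and stand at 6.54% to 6.94%, and the HNKO bars stand at 9.21% to 12.3% and each consists almost wholly of a single cluster.

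The pericentral sums held 259958, 159550 and 287491 UMIs in WT mice 1 to 3 and 916776, 408062 and 432424 in HNKO mice 1 to 3, so that the WT sums were shallower and low genes were measured less precisely there. The median UMIs per pericentral nucleus overlapped between the groups, at 2574 to 4295 in WT and 3762 to 5338 in HNKO mice. The share of hashtag counts carried by a nucleus's own hashtag was 75.0% to 80.3% in WT mice and 83.9%, 72.7% and 55.1% in HNKO mice, and no cell barcode occurred more than once. HNKO mouse 3 stood apart from the others. With nuclei and UMIs matched between mice, 114 of 1834 genes were at least 2-fold below every other mouse in HNKO mouse 3, against 1 to 32 genes in each of the others. List medians in pericentral nuclei are therefore given with and without HNKO mouse 3, as are the genes that were low in it alone. Medians in other hepatocyte nuclei include all mice. There too HNKO mouse 3 was low, with hepatocyte genes summing to 9523 CPM against 26800 to 31797 CPM in WT mice.

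The Nampt levels of the genotypes overlapped in pericentral nuclei. The gene (chr12:32819545-32853349, plus strand, GRCm38) was at 43.5, 102 and 65.5 CPM in the WT and 54.5, 95.6 and 68.0 CPM in the HNKO mice. The groups overlapped, and the log2 fold change was 0.07 with an SE of 0.39. A Nampt UMI was found in 20.4% to 27.9% of the pericentral nuclei of a WT mouse and 27% to 32.1% of those of an HNKO mouse. The library tags the 3′ end of transcripts and introns were counted, so that the values do not show whether the floxed exons were present, and they give no check of the genotype labels. Nampt in other hepatocyte nuclei was at 95.2, 109 and 106 CPM in WT and 96.7, 151 and 72.1 CPM in HNKO mice.

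Glul, Slc1a2 and Slc22a3 overlapped between the genotypes in pericentral nuclei. These genes mark the clusters by which the nuclei were taken, so that their levels within them are in part fixed by that choice and bear little on the genotype. Glul was at 1069, 1638 and 1291 CPM in WT and 1076, 1580.1 and 1037 CPM in HNKO mice, a log2 fold change of -0.11 (SE 0.31) with overlapping groups. Slc1a2, which takes up glutamate for glutamine synthesis, was at 3499, 4018 and 4702 CPM in WT and 4800.3, 4305 and 2832 CPM in HNKO mice, a log2 fold change of -0.03 (SE 0.31) that was 0.03 when all low genes were kept. Slc22a3 varied most, with 150.4, 582 and 291 CPM in WT and 1253, 229 and 68.0 CPM in HNKO mice. Its highest and lowest values were both in HNKO mice, and its log2 fold change of 0.63 (SE 0.87) turned to -1.18 without HNKO mouse 1.

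No gene passed the test in pericentral nuclei. With edgeR's quasi-likelihood test and Benjamini-Hochberg adjustment at a false discovery rate (FDR) of 0.05, 0 of 4306 genes tested were called, a background of 0%. At an unadjusted p under 0.05 there were 118 genes (2.74% of those tested), 62 of them higher (1.44%) and 56 lower (1.3%) in HNKO. DESeq2 called 0 genes as well, with 87 at an unadjusted p under 0.05. The log2 fold changes were spread evenly, 2214 higher (51.4%) and 2092 lower (48.6%), with a median of 0.01. Non-overlapping values of the 3 HNKO and 3 WT mice were seen in 347 genes (8.06%), with HNKO above WT in 195 (4.53%) and below in 152 (3.53%). The gene values that follow are therefore measurements with their spread, and none of these differences passed the adjusted test.

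Pericentral markers as a list had 16 of 20 members with enough counts. Of these, 6 were higher and 10 lower in HNKO with a median log2 fold change of -0.07, which was -0.30 once HNKO mouse 3 was left out, and 1 of them was lower at an unadjusted p under 0.05 where 56 of 4306 genes were. The same 16 genes in other hepatocyte nuclei had a median of -0.67. The summed level of the list in pericentral nuclei was 18633, 15498 and 13389 CPM in WT and 12852, 14472 and 8533 CPM in HNKO mice, so that HNKO mouse 2 lay within the WT range and the others below it.

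Among the xenobiotic enzymes of this list, Cyp2e1, which oxidises ethanol and paracetamol, was at 2573, 2028 and 2782 CPM in WT and 1424, 2445 and 1701 CPM in HNKO mice (log2 fold change -0.41, SE 0.31). Cyp2c29 was at 7224, 3321 and 1018 CPM in WT and 1056, 2572 and 232 CPM in HNKO mice (log2 fold change -1.58, SE 0.84), with WT mouse 3 no higher than HNKO mouse 1. Cyp2c37 was at 954, 838 and 585 CPM in WT and 349, 516 and 96.1 CPM in HNKO mice, without overlap, and its log2 fold change of -1.31 (SE 0.52) had an unadjusted edgeR quasi-likelihood p of 0.0316 and an FDR of 1.00. Cyp2c genes are near copies of each other, so UMIs may have been divided among them by the quantification. Lgr5 was at 657, 877 and 567 CPM in WT and 516, 519 and 428 CPM in HNKO mice, again without overlap (log2 fold change -0.52, SE 0.28).

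Periportal markers were low in pericentral nuclei, and 7 of 15 had enough counts, 1 of them higher and 6 lower in HNKO, with a median log2 fold change of -0.31. Leaving out HNKO mouse 3 turned that median to 0.02, and it was -0.72 when HNKO mouse 1 was left out. Their values varied more between mice of 1 genotype than between genotypes. Cps1, the entry enzyme of the urea cycle, was at 3757, 4447 and 11411 CPM in WT and 11334, 4389 and 1557 CPM in HNKO mice. Ass1, which acts downstream of it, was at 238, 467 and 1171 CPM in WT and 2374, 492 and 244 CPM in HNKO mice. For both genes WT mouse 3 and HNKO mouse 1 were the highest. Pck1 was at 2965, 3468 and 3364 CPM in WT and 2844, 3084 and 294 CPM in HNKO mice, so that HNKO mouse 3 alone was low, and its log2 fold change of -0.65 (SE 0.66) was -0.13 without that mouse. Otc, which acts next after Cps1 in the urea cycle, and Arg1, which releases urea, had log2 fold changes of -0.31 (SE 0.28) and -0.40 (SE 0.48) with overlapping groups.

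**Figure D2:**
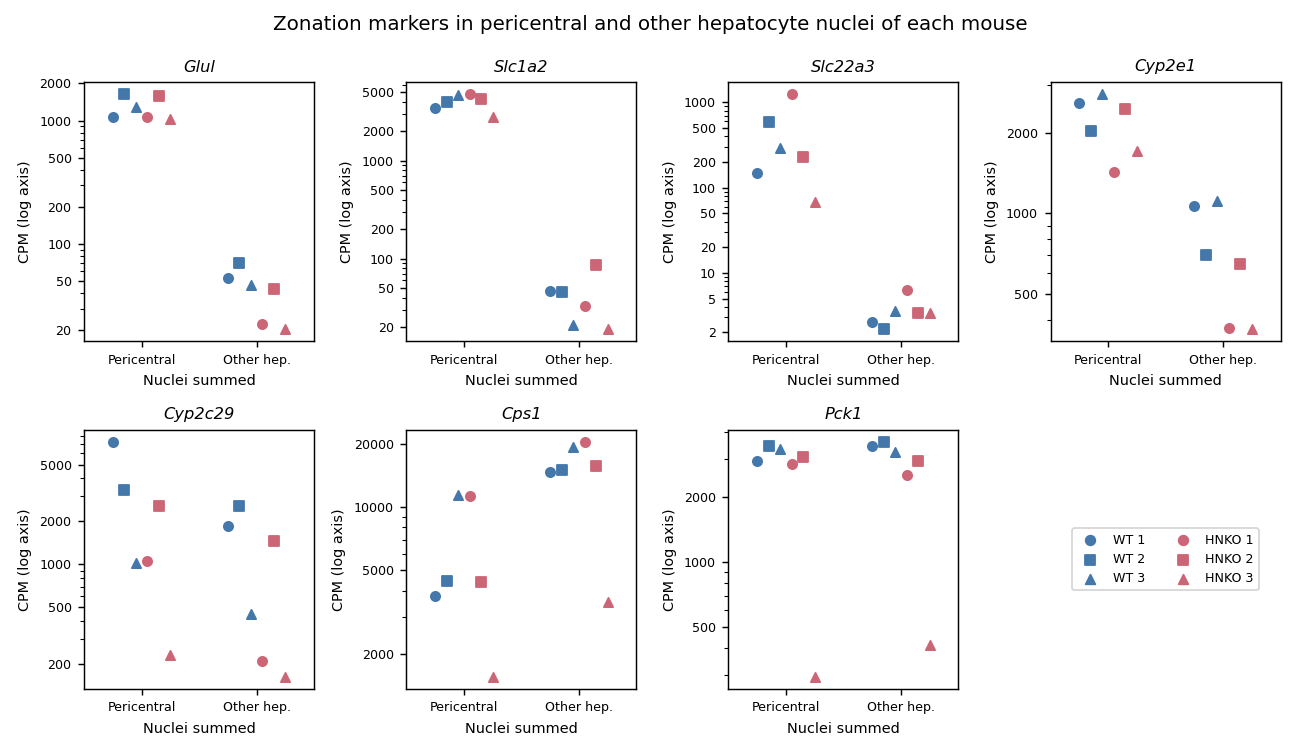
CPM (log axis) of 5 pericentral markers and of the periportal genes Cps1 and Pck1 in the pericentral and the other hepatocyte nuclei of each mouse, 1 point per mouse. Glul lies between 1037 and 1638 CPM in pericentral nuclei of both genotypes and between 20.5 and 70.0 CPM in the other hepatocyte nuclei, where the HNKO mice are below the WT mice.

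Genes with the lowest p-values among those without overlap and with a mean of at least 20 CPM are named next, 10 in each direction. Every one of these 20 genes had an FDR of 1.00 by edgeR's quasi-likelihood test. Car3 (chr3:14863512-14872523, plus strand, GRCm38), the carbonic anhydrase of liver, muscle and fat, was at 1255, 1184 and 705 CPM in WT and 206, 473 and 246 CPM in HNKO mice. Its means were 1048 ± 299 and 308 ± 144 CPM (SD, n = 3 each), a log2 fold change of -1.77 (SE 0.40). The unadjusted p by edgeR's quasi-likelihood test over all 4306 genes was 0.00137. From 58.1% to 76.9% of the pericentral nuclei of a WT mouse and from 53% to 69.1% of those of an HNKO mouse had a Car3 UMI.

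The major urinary proteins, pheromone carriers secreted by the liver under growth hormone, were also among the genes with lower HNKO values. Mup14 was at 67.3, 76.8 and 131 CPM in WT and 13.0, 43.0 and 10.0 CPM in HNKO mice (log2 fold change -2.14, SE 0.55), and Mup3 had a log2 fold change of -1.32 (SE 0.42). Mup genes form a family of near-identical copies, and the split of UMIs among them is uncertain. Txnip, an inhibitor of thioredoxin that responds to glucose, was at 95.0, 76.8 and 127 CPM in WT and 60.4, 33.5 and 30.0 CPM in HNKO mice (log2 fold change -1.25, SE 0.37). Fdx1, the ferredoxin that passes electrons to mitochondrial P450 enzymes, was at 285, 211 and 200.0 CPM in WT and 139, 112 and 44.0 CPM in HNKO mice (log2 fold change -1.23, SE 0.40). Tgfbr3, a co-receptor for TGF-β, was at 178, 205 and 196 CPM in WT and 63.9, 139 and 66.0 CPM in HNKO mice (log2 fold change -1.13, SE 0.34). The others were the phosphodiesterase Pde1a, the mitochondrially encoded CYTB, Cnst and the RNA-binding protein gene Khdrbs3, with log2 fold changes of -1.77, -1.05, -1.09 and -0.80. Pde1a had 9, 6 and 33 UMIs in the WT mice, in 3, 4 and 7 nuclei. A single nucleus gave 66.7% of those in WT mouse 1, and another gave 57.6% of those in WT mouse 3. Mup14 had 10.7, 17.8 and 4.79 estimated UMIs in the HNKO mice. Pde1a and Mup14 passed the filter on low counts through the WT mice, so that their place here is in part fixed by it. For Car3 a single nucleus gave 39.2% of the pericentral UMIs of WT mouse 3.

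In the opposite direction, the transcriptional regulator Zfp608 was at 35.6, 51.2 and 36.4 CPM in WT and 112, 88.4 and 156 CPM in HNKO mice, a log2 fold change of 1.56 (SE 0.35). Its edgeR quasi-likelihood p was 0.00128 before and its FDR 1.00 after adjustment. Pdgfc, a ligand of platelet-derived growth factor receptor α, was at 35.6, 51.2 and 40.0 CPM in WT and 131, 66.9 and 114 CPM in HNKO mice (log2 fold change 1.34, SE 0.37). Aak1, a kinase of clathrin-mediated endocytosis, was at 63.3, 51.2 and 65.5 CPM in WT and 115, 119.5 and 118 CPM in HNKO mice (log2 fold change 0.95, SE 0.27). Both groups were tight for Aak1, with SDs of 7.70 and 2.39 CPM. Snhg11, a small nucleolar RNA host gene that the GENCODE annotation lists as protein coding, was at 11.9, 32.0 and 18.2 CPM in WT and 60.4, 62.2 and 64.0 CPM in HNKO mice (log2 fold change 1.66, SE 0.42). Abtb2 was at 150.4, 160.0 and 94.5 CPM in WT and 744, 215 and 252 CPM in HNKO mice, with HNKO mouse 1 far above the other 2.

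Cep112, a centrosomal protein gene, and Baiap2, an adaptor of the actin cytoskeleton, had log2 fold changes of 1.94 (SE 0.46) and 1.06 (SE 0.33). Cep112, Snhg11, Prpsap1, Acyp2 and Atp11a rested on few molecules in WT mice. They passed the filter on low counts through the HNKO mice, so that their place among genes with HNKO above WT is in part fixed by it. Cep112 had 4, 5 and 3 UMIs in the WT mice, in 4, 4 and 3 nuclei, and Snhg11 had 3, 5 and 5 UMIs, in 3, 4 and 4 nuclei. Prpsap1 had 6, 1 and 4 UMIs in the WT mice, in 3, 1 and 2 nuclei, against 35, 19 and 31 UMIs in 26, 15 and 26 nuclei in the HNKO mice. In WT mouse 2, all UMIs of Prpsap1, Acyp2 and Atp11a came from 1 nucleus each.

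**Figure D3:**
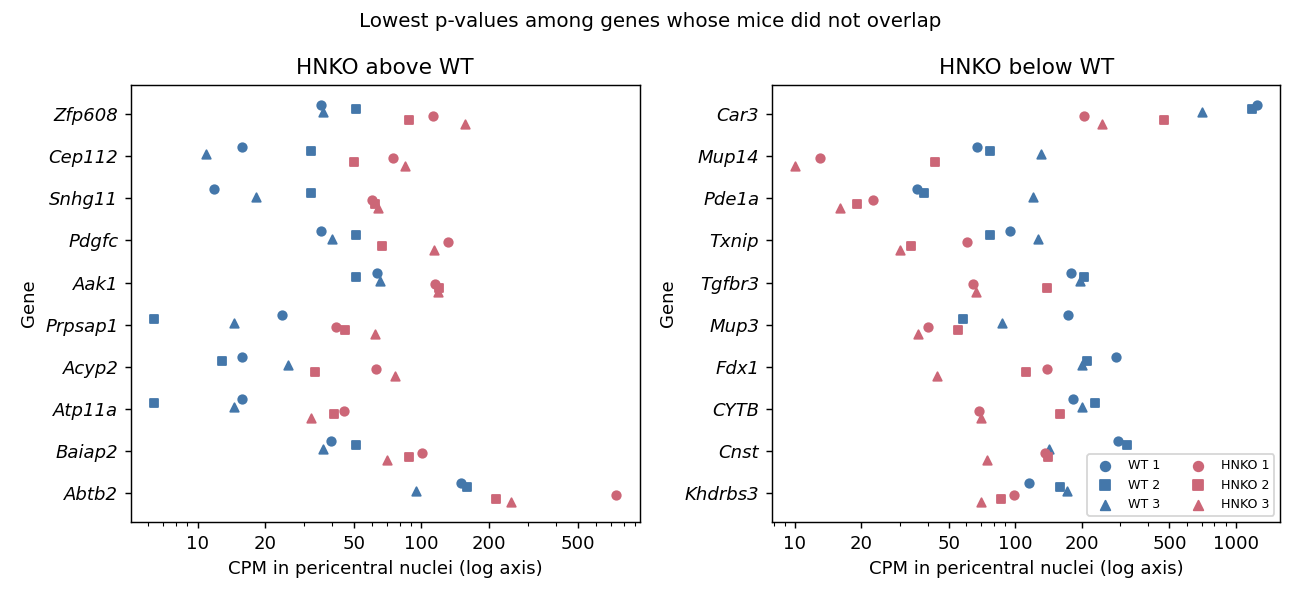
CPM in pericentral nuclei (log axis) of the 10 genes with HNKO above WT and the 10 with HNKO below WT that had the lowest p-values without overlap, 1 point per mouse. Car3 runs from 705 to 1255 CPM in WT and from 206 to 473 CPM in HNKO mice, and Aak1 from 51.2 to 65.5 and from 115 to 119.5 CPM.

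The metabolic gene lists are described by their counts and medians beside those of all 4306 genes, which were 51.4% higher with a median of 0.01. In other hepatocyte nuclei 4304 of these genes were tested, 1774 of them higher and 2530 lower in HNKO, with a median of -0.051. Xenobiotic P450 genes and their regulators leaned to lower values: 21 of 22 were tested, 1 was higher and 20 were lower in HNKO, with a median log2 fold change of -0.37 in pericentral (-0.31 without HNKO mouse 3) and -0.67 in other hepatocyte nuclei. Of the 20, 3 had an unadjusted p under 0.05 (Cyp4a14, Cyp2c37 and Cyp2c54), where 1.3% of all genes were lower at that level, and none was called. Cyp2c37 and Cyp2c54 may share UMIs as near copies and so are not separate counts. The list also holds pericentral markers described above, among them Cyp2e1, Cyp2c29 and Cyp2c37. Cyp4a14, a fatty acid ω-hydroxylase induced by PPARα, was at 285, 179 and 50.9 CPM in WT and 53.3, 93.2 and 28.02 CPM in HNKO mice (log2 fold change -1.57, SE 0.59). The summed level of the list was 28835, 23771 and 18648 CPM in WT and 16905, 22195 and 12538 CPM in HNKO mice, so that HNKO mouse 2 lay within the WT range.

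Mitochondrially encoded transcripts all had lower values in HNKO. Of 13 genes 10 were tested, all with a negative log2 fold change, and the median was -0.76 in pericentral (-0.55 without HNKO mouse 3) and -0.36 in other hepatocyte nuclei. CYTB (complex III) was at 182, 230.4 and 200.0 CPM in WT and 68.7, 160.2 and 70.0 CPM in HNKO mice, and ND1 (complex I) at 103, 83.2 and 120.0 CPM in WT and 56.8, 66.9 and 52.0 CPM in HNKO mice, each without overlap. The summed level was 1908, 2777 and 1938 CPM in WT and 1081, 2056 and 941 CPM in HNKO mice, and here too HNKO mouse 2 overlapped the WT mice. These transcripts are made outside the nucleus, so in a nuclear preparation they come from material carried over with the nuclei, and the part of carry-over in their levels was not tested. Nuclear genes for subunits of the respiratory chain were mostly too low, and the 10 of 76 tested were 5 higher and 5 lower with a median of 0.05 (-0.13 without HNKO mouse 3). Uqcrq of complex III was at 35.6, 64.0 and 36.4 CPM in WT and 20.1, 19.1 and 28.02 CPM in HNKO mice.

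Bile acid synthesis and transport had 18 of 20 genes tested, 5 higher and 13 lower, with a median of -0.25 (-0.29 without HNKO mouse 3). Cyp7a1, the rate-limiting enzyme of bile acid synthesis, was at 1053, 639.9 and 520.0 CPM in WT and 583, 514 and 312 CPM in HNKO mice (log2 fold change -0.65, SE 0.36). Nr1h4, which encodes the bile acid receptor FXR, was at 1583, 1005 and 1225 CPM in WT and 703, 951 and 835 CPM in HNKO mice, without overlap (log2 fold change -0.62, SE 0.30). The bile salt export pump Abcb11 was at 431, 416 and 258 CPM in WT and 747, 368 and 576 CPM in HNKO mice, with overlapping groups (log2 fold change 0.62, SE 0.34).

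Fatty acid oxidation and PPARα targets had 19 of 26 genes tested, 5 higher and 14 lower, with a median of -0.19 in pericentral (-0.29 without HNKO mouse 3) and -0.38 in other hepatocyte nuclei. The summed level of the list was 12960, 12330 and 12556 CPM in WT and 10009, 11108 and 7679 CPM in HNKO mice, all 3 below the WT mice. Acadm, the medium-chain acyl-CoA dehydrogenase, was at 150.4, 141 and 116 CPM in WT and 81.7, 108 and 46.0 CPM in HNKO mice, without overlap (log2 fold change -0.79, SE 0.34). Fatty acid synthesis had 17 of 19 genes tested, 13 higher and 4 lower, with a median of 0.17 in pericentral nuclei and -0.19 in other hepatocyte nuclei. The pericentral median was 0.14 without HNKO mouse 3 and turned to -0.012 without WT mouse 1. The desaturase Fads1 was at 47.5, 25.6 and 50.9 CPM in WT and 68.7, 153 and 62.0 CPM in HNKO mice (log2 fold change 1.12, SE 0.46). Gpam, which starts triglyceride synthesis, was at 439, 352 and 415 CPM in WT and 670.2, 439.8 and 444 CPM in HNKO mice. For Fads1 and Gpam the groups did not overlap, although Gpam was nearly level in WT mouse 1 and HNKO mouse 2. They were the only 2 of the 17 members without overlap, where 4.53% of all genes tested had HNKO above WT.

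NAD synthesis had 12 of 20 genes tested, 5 higher and 7 lower, with a median of -0.10 (-0.015 without HNKO mouse 3) and overlapping sums. NAD consumption had 10 of 26 tested, 7 higher and 3 lower, with a median of 0.14 (0.10 without HNKO mouse 3). Its summed level was 1132, 973 and 1142 CPM in WT and 1156, 1143 and 1289 CPM in HNKO mice, which do not overlap, although WT mouse 3 and HNKO mouse 2 were nearly level. Nmrk1 encodes a kinase that turns nicotinamide riboside into nicotinamide mononucleotide, from which NAD+ is made. Nmrk1 was at 63.3, 64.0 and 61.8 CPM in WT and 17.8, 43.0 and 54.0 CPM in HNKO mice, without overlap (log2 fold change -0.76, SE 0.44). Tdo2, the first enzyme of the route from tryptophan, was at 994, 1133 and 2204 CPM in WT and 1403, 879.7 and 482 CPM in HNKO mice. The mitochondrial deacylase Sirt3 was at 178, 173 and 185 CPM in WT and 141, 153 and 182 CPM in HNKO mice.

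Wnt and β-catenin targets had 8 of 13 genes tested, 4 higher and 4 lower, with a median of 0.02 (-0.0092 without HNKO mouse 3). Tnfrsf19, a Wnt-responsive receptor, was at 131, 109 and 109 CPM in WT and 33.2, 88.4 and 102 CPM in HNKO mice, and Notum, which inactivates Wnt ligands, had a log2 fold change of -0.56 (SE 0.35). Tbx3 was at 3.96, 64.0 and 7.27 CPM in WT and 7.10, 45.4 and 160.1 CPM in HNKO mice, with the highest value in HNKO mouse 3. The nuclei of that mouse form Central HNKO 2, whose leading gene is Tbx3, so that this value is in part fixed by the choice of nuclei. Glutamine and ammonia metabolism had 12 of 16 genes tested, 3 higher and 9 lower, with a median of -0.05 (0.13 without HNKO mouse 3). Both this list and that of Wnt targets hold pericentral markers, among them Glul, so that their medians are in part fixed by the choice of nuclei. Got2, the mitochondrial aspartate aminotransferase, was at 123, 64.0 and 87.3 CPM in WT and 40.3, 33.5 and 74.0 CPM in HNKO mice. The glutamine transporter Slc38a3 was at 558, 691 and 407 CPM in WT and 319, 899 and 871 CPM in HNKO mice.

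**Figure D4:**
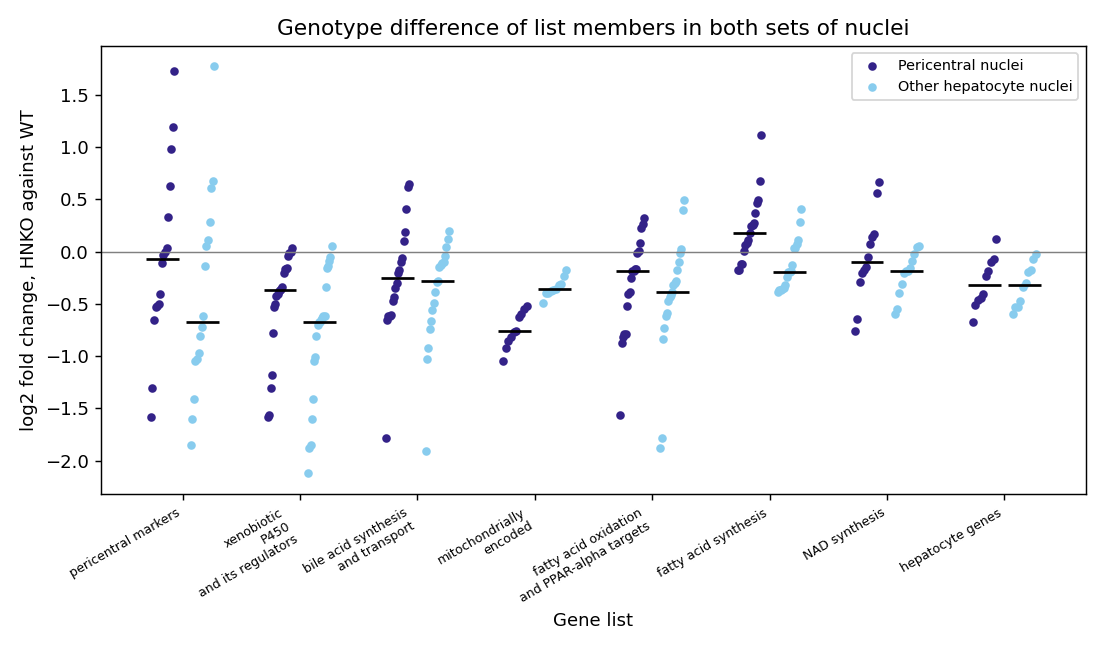
log2 fold change, HNKO against WT, of each tested member of 8 gene lists in pericentral and in other hepatocyte nuclei, with the median of each list as a black line. The pericentral medians run from -0.76 for mitochondrially encoded genes to 0.17 for fatty acid synthesis.

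Among the remaining lists, hepatocyte genes had 10 of 11 tested, 1 higher and 9 lower, with a median of -0.32 (-0.11 without HNKO mouse 3). Transthyretin (Ttr) was at 966, 691 and 920.0 CPM in WT and 452, 629 and 534 CPM in HNKO mice without overlap, whereas albumin (Alb), at 4829.5, 4153 and 6153 CPM in WT and 4867, 4045 and 1715 CPM in HNKO mice, was low in HNKO mouse 3 only (log2 fold change -0.51, SE 0.40, and -0.17 without that mouse). The median log2 fold change was -0.0024 for core clock genes (13 of 19 tested), -0.0043 for growth hormone and insulin signalling (13 of 16), -0.03 for acute phase genes (15 of 23) and 0.19 for cholesterol synthesis and uptake (9 of 21). Without HNKO mouse 3 these medians were 0.088, 0.35, 0.22 and -0.076 in the same order. Stat5b, the transcription factor downstream of growth hormone, was at 123, 173 and 145 CPM in WT and 220.2, 222 and 234 CPM in HNKO mice, without overlap (log2 fold change 0.63, SE 0.25). NRF2 targets had 5 of 16 genes tested, 4 of them higher, with a median of 0.47 (0.32 without HNKO mouse 3 and 0.034 without WT mouse 3). Their summed level was 487, 473 and 564 CPM in WT and 347, 538 and 939 CPM in HNKO mice, so that HNKO mouse 1 lay below every WT mouse. Txnrd1, a thioredoxin reductase, was at 39.6, 32.0 and 43.6 CPM in WT and 47.4, 86.1 and 92.1 CPM in HNKO mice. Stress genes had 6 of 19 tested, 2 higher and 4 lower, with a median of -0.13 (0.094 without HNKO mouse 3), and the p53 target Mdm2 was at 35.6, 19.2 and 47.3 CPM in WT and 48.5, 57.4 and 102 CPM in HNKO mice. Of 24 genes of injury and ductular reprogramming only 4 had enough counts in pericentral nuclei, 3 higher and 1 lower, with a median of 0.60 in pericentral (0.90 without HNKO mouse 3 and -0.19 without HNKO mouse 1) and 1.29 in other hepatocyte nuclei.

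Markers of other cell types were present at low levels in the pericentral sums. Of 13 endothelial markers 12 had at least 1 UMI, with Wnt9b at 0, and their summed level was 51.5 to 211 CPM in WT and 42.0 to 81.7 CPM in HNKO mice. Kupffer cell markers (7 of 8 with a UMI, Marco at 0) summed to at most 22.01 CPM and CD45+ markers (10 of 11, Ms4a1 at 0) to at most 38.2 CPM in any mouse. Stellate markers (9 of 10, Rgs5 at 0) summed to 111 to 222 CPM in WT and 146 to 332 CPM in HNKO mice, most of it from Reln. Cholangiocyte markers summed to 1116 to 1421 CPM in WT and 582 to 1202 CPM in HNKO mice, led by Erbb4, with the defining Krt19, Epcam and Cftr at 0 UMIs. The part of these cell types in the differences above was not tested.

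The genotype difference was then compared between pericentral and other hepatocyte nuclei of the same mice. In other hepatocyte nuclei 0 of 11532 genes were called (0%) by edgeR, with 736 at an unadjusted p under 0.05 (6.38%), 488 of them higher (4.23%) and 248 lower (2.15%), and 29 genes called by DESeq2. Of all genes tested there, 52.4% were higher and 47.6% lower in HNKO. The test of the difference itself, with the mouse as a block, called 7 of 10431 genes (0.0671%), 5 with a lower and 2 with a higher genotype effect in pericentral nuclei. At an unadjusted p under 0.05 there were 591 genes (5.67%), 404 of them with a higher effect (3.87%) and 187 with a lower effect (1.79%) in pericentral nuclei. Across all genes 58.6% of the differences were positive and 41.4% negative. DESeq2 called none of the 10431 genes, and none of 5127 was called by edgeR when the other hepatocyte sums were thinned to the depth of the pericentral sums. With RLE size factors 5 of the 7 calls were kept, all with a lower effect in pericentral nuclei. Without WT mouse 1 edgeR called 7 genes, only 1 of them among the original 7. Without WT mouse 2 it called 2, both among the 7, and without WT mouse 3 it called 17, with 6 of the 7. Without HNKO mouse 1, 2 or 3 it called 9, 51 and 9 genes, with 5, 7 and 5 of the 7. In other hepatocyte nuclei alone, 38 genes were called without HNKO mouse 2.

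Rcan2, Sdk1, Nrg1 and C6 had higher values in the other hepatocyte nuclei of HNKO mice 1 and 3 than in those of the WT mice, whereas the genotypes overlapped in pericentral nuclei. Rcan2, a regulator of calcineurin, was at 39.7, 61.2 and 37.6 CPM in WT and 168, 54.2 and 226 CPM in HNKO mice in other hepatocyte nuclei. In pericentral nuclei it was already high, at 340.4, 537 and 356 CPM in WT and 442, 351 and 468 CPM in HNKO mice. The difference between the 2 genotype effects was -1.47 on the log2 scale (SE 0.27, edgeR quasi-likelihood FDR 0.0101). Every WT mouse had a pericentral level 8.59 to 9.47 times that in other hepatocyte nuclei, and the ratio was 2.62, 6.48 and 2.07 in the HNKO mice.

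The complement protein C6, a component of the complement membrane attack complex, was at 5.62, 4.37 and 2.56 CPM in WT and 118, 6.94 and 62.8 CPM in HNKO mice in other hepatocyte nuclei. In pericentral nuclei it was at 214, 25.6 and 3.64 CPM in WT and 110.1, 38.2 and 76.0 CPM in HNKO mice, with the highest value in WT mouse 1. The difference was -3.60 (SE 0.53, edgeR quasi-likelihood FDR 0.000163). It rested in part on WT mouse 1, which had 54 pericentral UMIs against 4 and 1 in the other WT mice, and was -1.41 without that mouse. The adhesion molecule Sdk1 was at 23.8, 36.6 and 29.7 CPM in WT and 217, 38.1 and 136 CPM in HNKO mice in other hepatocyte nuclei, and at 51.5, 96.0 and 43.6 against 115, 33.5 and 66.0 CPM in pericentral nuclei (difference -1.82, SE 0.36). For Sdk1 a single nucleus gave 68.5%, 34.0% and 40.9% of the pericentral UMIs of WT mice 1, 2 and 3.

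Nrg1, a ligand of the ERBB receptors, was at 20.8, 23.5 and 24.3 CPM in WT and 288, 28.8 and 196 CPM in HNKO mice in other hepatocyte nuclei. Its pericentral level stayed low in all 6 mice, at 31.7, 6.40 and 18.2 CPM in WT and 11.8, 21.5 and 8.005 CPM in HNKO mice, from at most 10.1 UMIs in a mouse. The difference was -3.54 (SE 0.75, edgeR quasi-likelihood FDR 0.0386). In HNKO mice 1 and 3 the pericentral level of Nrg1 was 0.0411 and 0.0408 times that in the other hepatocyte nuclei, and in HNKO mouse 2 it was 0.747 times.

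The remaining calls were Tgfb2, Hnmt and Cyp2c69. Tgfb2, which encodes TGF-β2, had 20, 1 and 1 UMIs in pericentral nuclei of WT mice and 0, 0 and 1 in those of HNKO mice, and the 20 UMIs of WT mouse 1 came from 1 nucleus. Hnmt (chr2:24002910-24049394, minus strand, GRCm38), the histamine N-methyltransferase, had no UMI in 131 pericentral WT nuclei, for an upper limit of 2.29% of nuclei with a UMI from 3 counts of the total. That limit takes the nuclei of the 3 mice together and bounds detection in these shallower sums, not expression. It had 14, 8 and 12 UMIs in 11, 8 and 9 pericentral nuclei of the HNKO mice, which is 28 of 259 nuclei (10.8%). In other hepatocyte nuclei 9.49% of WT and 12.3% of HNKO nuclei had an Hnmt UMI. The pericentral HNKO level of 16.6, 19.1 and 24.0 CPM was 0.998, 1.10 and 0.895 times that in the other hepatocyte nuclei of the same mice. Cyp2c69 was at 566, 397 and 65.5 CPM in WT and 115, 758 and 72.0 CPM in HNKO mice in pericentral nuclei, and at 322, 227 and 14.3 against 12.7, 203 and 14.6 CPM in other hepatocyte nuclei. WT mouse 3 and HNKO mice 1 and 3 were low in both sets, and 1 nucleus gave 86.3% of the pericentral UMIs of WT mouse 3.

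**Figure D5:**
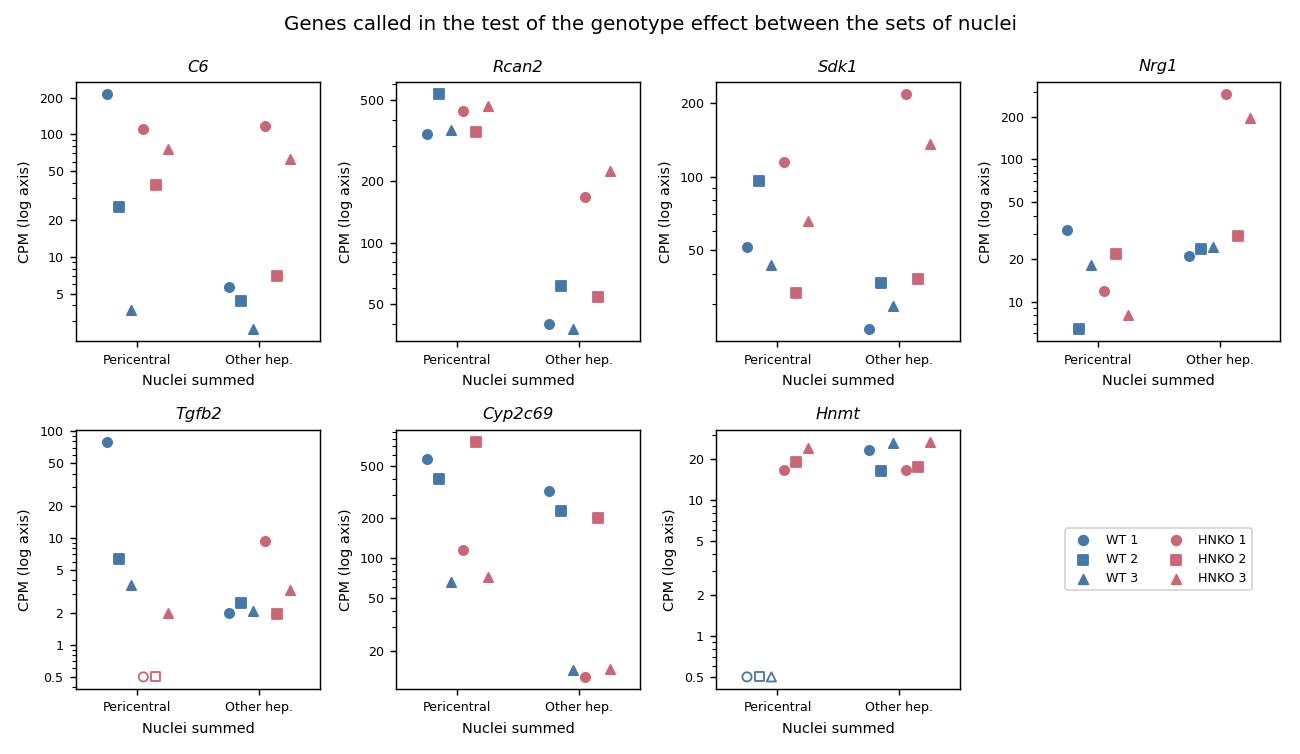
CPM (log axis) of the 7 genes called in the test of the genotype effect between pericentral and other hepatocyte nuclei, 1 point per mouse, with open symbols at the bottom for sums of 0 UMIs. In other hepatocyte nuclei C6, Rcan2, Sdk1 and Nrg1 are high in HNKO mice 1 and 3 and near the WT mice in HNKO mouse 2.

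Pericentral marker genes had a median genotype difference of -0.07 in pericentral and -0.67 in other hepatocyte nuclei, and none of them was called in the test between both sets of nuclei. The nuclei were divided by clusters that Glul and other such markers define. The contrast of these markers between both sets is therefore in part fixed by that choice and bears little on the genotype. Glul in other hepatocyte nuclei was at 53.5, 70.0 and 46.8 CPM in WT and 22.7, 43.6 and 20.5 CPM in HNKO mice. The part of free RNA in these values was not tested. The ratio of the pericentral to the other hepatocyte level of Glul was 19.97, 23.4 and 27.6 in WT and 47.5, 36.3 and 50.7 in HNKO mice, without overlap (difference of the effects 0.93, SE 0.22, edgeR quasi-likelihood FDR 0.0851). Cyp2e1 was at 1063, 697 and 1109 CPM in WT and 375, 647 and 370.2 CPM in HNKO mice in other hepatocyte nuclei. Its ratio was 2.42, 2.91 and 2.51 in WT and 3.79, 3.78 and 4.59 in HNKO mice, also without overlap (difference 0.66, SE 0.19, edgeR quasi-likelihood FDR 0.347). For Cyp2c29 the ratios overlapped, at 1.29 to 3.90 in WT and 1.42 to 5.00 in HNKO mice.

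After Cyp2c69, Hnmt and Glul, the next named genes with a higher effect in pericentral nuclei were Hopx and Cdh18, neither of them called. Hopx, a transcriptional cofactor, was at 3.96, 6.40 and 36.4 CPM in WT and 45.0, 66.9 and 12.01 CPM in HNKO mice in pericentral nuclei (difference 2.17, SE 0.52, edgeR quasi-likelihood FDR 0.103). The cadherin Cdh18 was at 245, 249.5 and 124 CPM in WT and 283, 473 and 168 CPM in HNKO mice in pericentral nuclei, and its ratio to the other hepatocyte nuclei was 0.197 to 0.433 in WT and 0.570 to 0.936 in HNKO mice (difference 1.07, SE 0.26, edgeR quasi-likelihood FDR 0.12). The FDR came under 0.05 for Hopx without WT mouse 3 (0.0181), HNKO mouse 2 (0.0104) or HNKO mouse 3 (0.0437), for Cdh18 without WT mouse 1 (0.0331), HNKO mouse 2 (0.00389) or HNKO mouse 3 (0.0451), and for Glul without WT mouse 3 (0.0318) or HNKO mouse 2 (0.0103). It also came under 0.05 for Hopx (0.0484) and Cdh18 (0.0286) without the filter on low counts, and for Ass1 without HNKO mouse 2 (0.00364).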

How the data were processed

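The authors sequenced nuclei from 6 livers, 3 per genotype, with 10x Genomics 3′ chemistry. Fastq files were made with Cell Ranger 5.0.1, and reads were mapped with Alevin onto GRCm38 (submitters' processing notes and the study's methods). The authors deposited these values as estimated counts of UMIs per gene and nucleus, with introns included and no normalization, beside hashtag counts per nucleus and a table of mouse and cluster names. They had removed nuclei without a single hashtag call before deposit. The study's methods set upper limits on hashtag counts and on features per nucleus, which remove some droplets with 2 nuclei of 1 mouse, and no doublet caller was run here. Their clusters and names were used as given. A matrix of corrected values was not used.

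Estimated counts were summed per mouse over the pericentral and over the other hepatocyte nuclei and rounded, since nuclei of a mouse are not replicates. A mouse needed at least 10 nuclei. Sums were tested in R 4.3.3 with edgeR 4.0.16 (filterByExpr, TMM, quasi-likelihood F test, model of genotype, Benjamini-Hochberg adjustment over all genes tested, FDR 0.05). The genotype effect was compared between both sets of nuclei in a model of mouse, set and set by genotype. Shares of nuclei were compared by two-sided exact permutation tests. The p-values measure the spread between 3 mice per group. The depth of the sums, 159550 to 916776 UMIs, limits the precision of low genes. The script was tested on simulated data.

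The members and gene lists were chosen with earlier results of these data known. Genes were named as follows: Nampt, Glul, Slc1a2, Slc22a3 and 5 further zonation markers by mean CPM; in each direction 10 genes of lowest p without overlap and with a mean of at least 20 CPM (leaving out Gm, Rik and unnamed genes); up to 4 members of lowest p in each list; and the genes called, or the 5 of lowest p in each direction, in the comparison of effects. Some genes that these rules name are not reported here. Alternatives were RLE size factors, DESeq2 1.42.0, no filter on low counts, each mouse left out, equal nuclei and UMIs per mouse, no mouse block, thinned sums, another denominator and, chosen after seeing the data, a selection of nuclei by 3 markers. Promoters were read from RefSeq (GRCm38.p6) and gene positions from GENCODE.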

Additional observations from a re-analysis of the deposited data

Results flagged for a closer look

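The genotype effect differed between pericentral and other hepatocyte nuclei for 7 genes by the interaction term of edgeR's quasi-likelihood test, and each is listed for that difference, as the effect in pericentral minus that in other hepatocyte nuclei on the log2 scale. It was -3.60 for C6, -1.47 for Rcan2, -1.82 for Sdk1 and -3.54 for Nrg1, the genes that were high in the other hepatocyte nuclei of HNKO mice 1 and 3. It was 1.38 for Cyp2c69, which was low in WT mouse 3 and in HNKO mice 1 and 3 in both sets of nuclei. It was -6.68 for Tgfb2 and 8.86 for Hnmt, where a group at or near 0 UMIs makes the size depend on the prior count of the fit, so that these are no estimates of a fold. The Tgfb2 value rested on 20 UMIs from 1 nucleus of WT mouse 1. No gene was called when the deeper of both sums was thinned to the depth of the other.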

How the results depend on the processing

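The count of genes called in pericentral nuclei stayed at 0 with RLE size factors, DESeq2, equal nuclei and UMIs per mouse, the marker-based selection and each mouse left out, and was 18 (9 higher, 9 lower) without the filter on low counts, among them Abtb2, Car3 and Mup14. In other hepatocyte nuclei the count was 111 without the filter, 29 with DESeq2 and 0 to 38 with 1 mouse left out. The count of genes whose effect differed between both sets was 16 without the filter, 0 with DESeq2, 0 in the model with no replicate block for the mouse (296 at an unadjusted p under 0.05), 0 with thinned sums and 2 to 51 with 1 mouse left out. The causes were not tested. No paired analysis was possible because WT and HNKO mice of the same number share only that number. The share of pericentral nuclei kept its direction over all nuclei, in the marker-based selection and with each mouse left out (2.76 to 4.32 percentage points), and was -3.24 with Central 1 alone. Without the filter the median log2 fold change was 0.081 for NAD synthesis and 0.65 for cholesterol synthesis. The median for NRF2 targets ranged from 0.034 to 0.99 with 1 mouse left out. With 1 mouse left out, list medians ranged from -0.30 to -0.041 for pericentral markers, -0.72 to 0.021 for periportal markers, -0.012 to 0.29 for fatty acid synthesis, -0.14 to 0.15 for Wnt targets, -0.13 to 0.24 for nuclear respiratory chain genes, -0.084 to 0.14 for core clock, -0.15 to 0.35 for growth hormone and insulin signalling, -0.022 to 0.22 for acute phase, -0.41 to 0.13 for glutamine and ammonia metabolism, -0.15 to 0.081 for NAD synthesis, -0.076 to 0.56 for cholesterol synthesis, -0.19 to 0.90 for injury and -0.52 to 0.094 for stress genes. Of 109 named genes tested in pericentral nuclei 23 changed sign in at least 1 alternative, with these ranges when 1 mouse was left out: Nampt (-0.20 to 0.38), Glul (-0.36 to 0.048), Slc1a2 (-0.19 to 0.17), Slc22a3 (-1.18 to 1.24), Cps1 (-1.13 to 0.49), Ass1 (-0.77 to 1.58), Arg1 (-0.76 to 0.27), Slc38a2 (-1.003 to 0.046), Slc7a2 (-1.10 to 0.12), Kynu (-0.10 to 0.95), Nnmt (-0.079 to 0.82), Atp5c1 (-0.51 to 0.20), Hlf (-0.74 to 0.10), Tm4sf4 (-0.19 to 1.03), Msrb3 (-0.58 to 0.93), Ccn1 (-0.37 to 0.15), Atf3 (-0.094 to 0.995), Nfe2l2 (-0.0057 to 0.79), Pkhd1 (-0.34 to 0.034), Cyp2c69 (-1.88 to 0.48), C6 (-0.75 to 2.61), Rcan2 (-0.092 to 0.26) and Sdk1 (-0.28 to 0.61). Slc1a2 was also at 0.034 without the filter and 0.14 in the marker-based selection, which takes nuclei by this gene among others and so does not test its stability, and where Nnmt was at -0.048. The difference of the effects between both sets ranged over Nampt (-0.081 to 0.35), Slc1a2 (-0.46 to 0.43), Slc22a3 (-1.56 to 0.36), Cps1 (-0.063 to 0.61), Pck1 (-0.15 to 0.28) and Cyp2c29 (-0.53 to 0.53). For Slc22a3 it was 0.15 with no replicate block and 1.22 with thinned sums. For Pck1 it was -0.025 with RLE, -0.0022 without the filter, -0.031 with DESeq2 and -0.019 with thinned sums, and for Cyp2c29 it was -0.0042 with DESeq2, -0.12 with no block and -0.064 with thinned sums. Not run were the alternatives of Central 1 alone for gene tests, since only 1 HNKO mouse had at least 10 such nuclei, and of each RNA pool alone, since the pool of a nucleus was not analysed here.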

Other observations

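With 39 nuclei and 119820 UMIs drawn from each mouse, 1834 genes had a mean of at least 100 CPM over the 6 mice, and the number at least 2-fold below every other mouse was 10, 1 and 19 in WT mice 1 to 3 and 32, 8 and 114 in HNKO mice 1 to 3. The number at least 2-fold above every other mouse was 6, 2 and 6 in WT and 16, 1 and 9 in HNKO mice. Among the 114 genes low in HNKO mouse 3 were Cps1, Pck1, Alb, Atf3, Cyp27a1 and Kmo, named after their values were seen. Atf3, a stress-induced transcription factor, was at 12.01 CPM in HNKO mouse 3 and at 83.1 to 221 CPM in the other 5 mice. Unspliced UMIs made up 72.1% to 79.0% of the pericentral sums in WT and 74.3% to 81.4% in HNKO mice.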
